A study of Rattus norvegicus with 12 samples.

Results

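The 10 genes described here encode proteins of heart muscle: the alpha myosin heavy chain Myh6, the light chains Myl7 and Myl4, troponin I Tnni3, troponin T Tnnt2, cardiac actin Actc1, the calcium release channel Ryr2, calsequestrin Casq2, the calcium pump regulator sarcolipin Sln, and the atrial hormone precursor Nppa. They were taken by symbol from a table of 32883 rat genes and had been chosen from their counts in these same libraries, so their values are a description and no p-value is given for them. The study took RNA from whole lungs of rats and made 12 sequencing libraries, with 3 groups of 4. All animals carried the label WT. The Control group has no treatment named. The MCT-vehicle group received monocrotaline, a plant alkaloid that injures lung vessels and is used to model pulmonary hypertension, and then vehicle for 10 days. The MCT-Fer-1 group received monocrotaline and then ferrostatin-1, a small molecule inhibitor of ferroptosis, which is an iron-dependent death of cells through oxidised lipids, for 10 days. All 3 groups share a labelled time of 25 days, whose starting point is not stated. No vehicle is stated for Control, so monocrotaline and vehicle cannot be told apart against it. The labels do not say whether each library came from a separate rat, and the spread between libraries may therefore be technical in part.

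In rodents, a sleeve of heart muscle extends from the left atrium along the pulmonary veins into the lung. Atrial and ventricular muscle share Ryr2, Casq2, Tnni3, Tnnt2 and Actc1, whereas Myl7, Myl4, Sln and Nppa are typical of atrial muscle, and Myl2, Myl3 and, in slow or stressed ventricle, Myh7 are typical of ventricular muscle. In the adult rodent Myh6 is the main myosin heavy chain of both chambers. In RNA from whole tissue, a lower level of a cell type's transcripts can come from fewer cells or from less RNA per cell, and these cannot be told apart.

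The heart muscle transcripts were concentrated in a pair of libraries from different groups. Summed over the 10 genes, Control libraries 1 to 4 held 36.42, 21.09, 18.18 and 277.7 CPM (counts per 1000000 counts of a library, with totals scaled by TMM). MCT-vehicle libraries 1 to 4 held 23.91, 440.7, 82.65 and 46.51 CPM, and MCT-Fer-1 libraries 1 to 4 held 21.28, 45.23, 18.07 and 20.12 CPM. MCT-vehicle 2 and Control 4 were far above the rest, MCT-vehicle 3 was next, and the MCT-Fer-1 group held no library of this kind. Of the 10 genes, 8 had their highest level in MCT-vehicle 2 and 1, Sln, in Control 4. These 2 libraries took the top 2 places for 9 genes, the exception being Nppa. The third place was taken by MCT-vehicle 3 for 8 genes, although its label sets it apart in no way from the other MCT-vehicle libraries. Group comparisons of the members are therefore given with and without the 2 highest libraries.

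**Figure D1:**
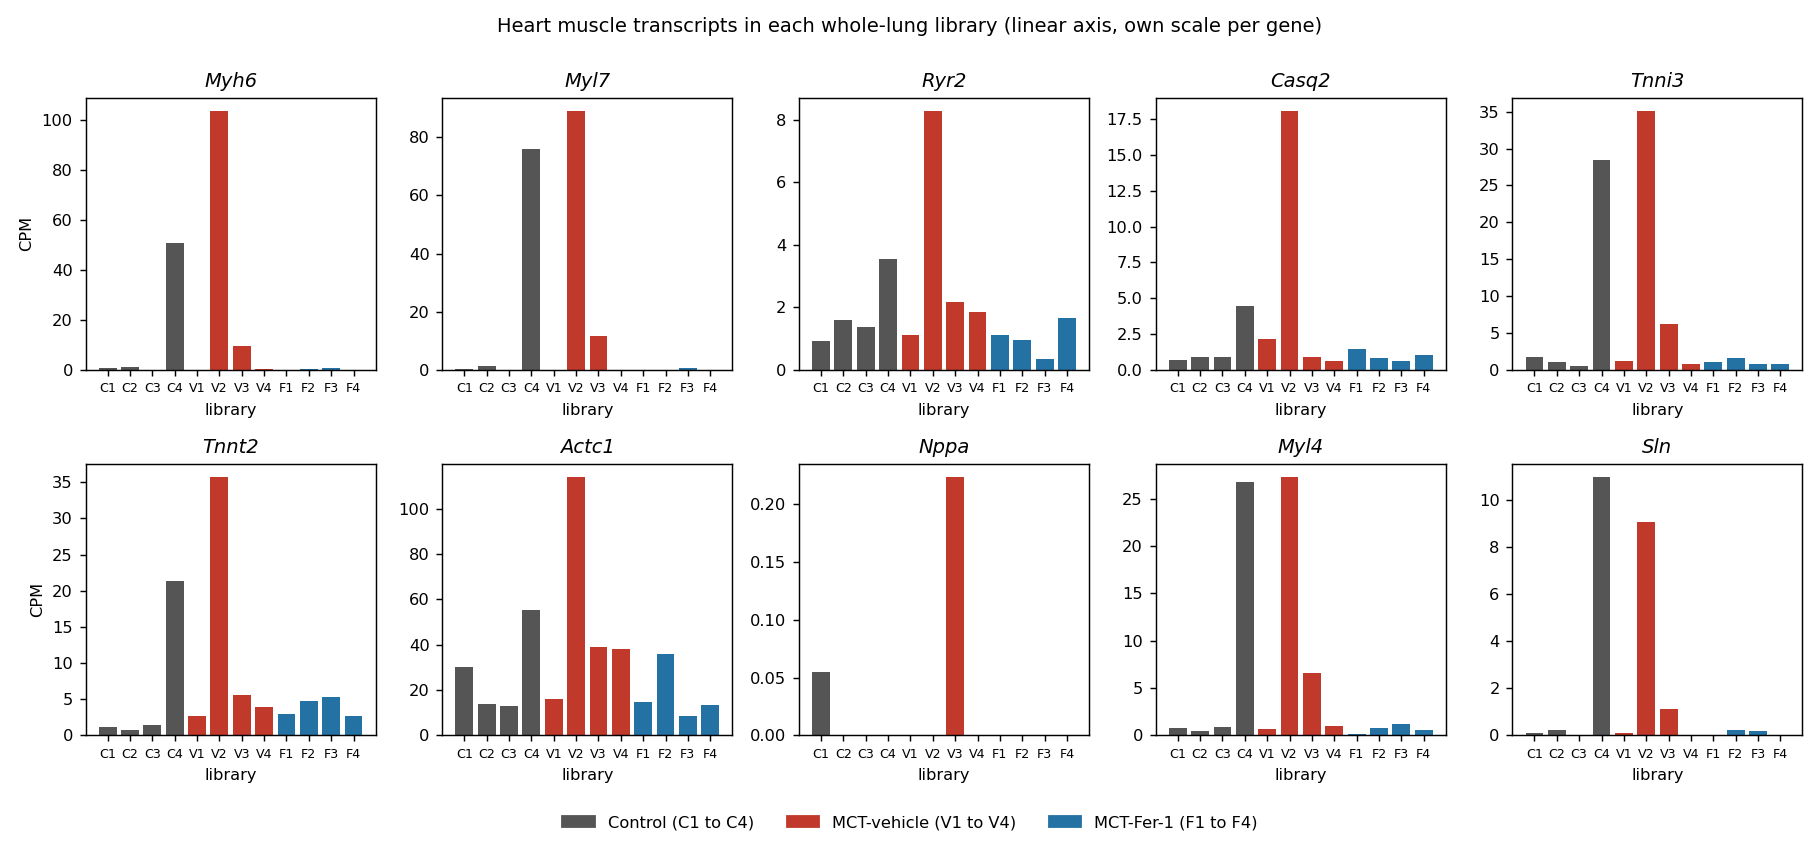
Level of each of the 10 heart muscle transcripts (vertical axis, CPM from 0, with its own scale per gene) in each of the 12 libraries (horizontal axis, C Control, V MCT-vehicle, F MCT-Fer-1; each bar is 1 library). Control 4 and MCT-vehicle 2 stand above the other bars for every gene but Nppa, as with Myh6 at 50.75 and 103.8 CPM against at most 9.54 CPM elsewhere.

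Sequencing depth ran from 16640022 to 18229992 counts per library among controls, from 13654695 to 24016262 with vehicle and from 11601929 to 70627239 with ferrostatin-1, so that 3 counts, the upper limit that a count of 0 allows, stand for 0.0419 to 0.258 CPM depending on the library; this limit covers counting error only. Lung identity was clear in all 12 libraries: the summed level of 9 alveolar and endothelial marker genes, among them Sftpc (surfactant protein C) and Ager, ran from 23230 to 37630 CPM, lowest in MCT-vehicle 2. The share of counts from mitochondrial transcripts was 3.17% to 3.37% among Control libraries, 3.65% to 4.15% among MCT-vehicle libraries and 3.28% to 4.2% among MCT-Fer-1 libraries. Their part in the values below was not tested.

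The regions before 4 of the genes are shown because these genes differ in how they appear in the high libraries. Myl4 was at the same level in both, Casq2 differed most between them, Tnni3 was high in both to a similar extent, and Nppa was nearly undetected in all libraries. Sequences are from RefSeq, build GRCr8, 250 bases before the annotated start, written 5′ to 3′ along the gene, with motif matches in capitals. The windows are chr10:89975900-89976149 for Myl4, chr2:192214306-192214555 for Casq2, chr1:78342321-78342570 for Tnni3 and chr5:163711934-163712183 for Nppa, all on the plus strand.
Myl4: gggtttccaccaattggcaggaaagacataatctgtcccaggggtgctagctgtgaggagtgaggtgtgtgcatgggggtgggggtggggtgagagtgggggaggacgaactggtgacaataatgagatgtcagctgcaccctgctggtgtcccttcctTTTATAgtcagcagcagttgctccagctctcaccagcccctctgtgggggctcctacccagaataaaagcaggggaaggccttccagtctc
Casq2: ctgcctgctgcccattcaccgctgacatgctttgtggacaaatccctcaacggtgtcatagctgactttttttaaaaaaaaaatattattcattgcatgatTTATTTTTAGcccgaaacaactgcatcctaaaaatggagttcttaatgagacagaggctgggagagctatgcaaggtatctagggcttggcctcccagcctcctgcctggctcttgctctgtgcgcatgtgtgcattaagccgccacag
Tnni3: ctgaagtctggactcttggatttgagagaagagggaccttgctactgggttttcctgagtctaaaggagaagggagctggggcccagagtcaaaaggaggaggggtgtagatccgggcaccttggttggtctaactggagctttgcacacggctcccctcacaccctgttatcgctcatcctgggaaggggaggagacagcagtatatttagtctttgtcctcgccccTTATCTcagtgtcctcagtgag
Nppa: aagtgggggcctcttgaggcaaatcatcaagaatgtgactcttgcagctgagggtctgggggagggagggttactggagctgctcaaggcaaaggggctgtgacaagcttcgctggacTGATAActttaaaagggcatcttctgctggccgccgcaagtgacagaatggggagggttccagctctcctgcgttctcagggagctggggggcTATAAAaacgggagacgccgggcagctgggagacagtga

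A window was found for 9 of the 10 genes, Tnnt2 having 2 windows; Sln had no entry. Each window was searched on both strands for 6 motifs: the CArG box bound by serum response factor, the site of MEF2 factors, the TATA box TATAAA, the GATA factor letters AGATAA and TGATAA, and the NK2 homeobox letters TNAAGTG. The letters of the TATA box, the CArG box and the MEF2 site can overlap. Capitals mark the reverse complement of TATAAA in Myl4 at 91 to 86 bases before the start, a MEF2 site in Casq2 at 149 to 140 bases, the reverse complement of AGATAA in Tnni3 at 22 to 17 bases, and in Nppa TGATAA at 132 to 127 bases and TATAAA at 39 to 34 bases. Among the 9 genes, 2 held TATAAA, which 12.9% of all 33469 windows of this length held. AGATAA stood in 2 (Tnni3 and Tnnt2), against 10.3% of all windows, TGATAA in 1 (7.97%) and a MEF2 site in 1 (2.96%). CArG boxes and TNAAGTG, present in 1.5% and 9.89% of all windows, were in 0 of the 9. No motif was common to the genes that were high together, within these 250 bases.

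Among the myosins, Myh6 (ENSRNOG00000025757), the motor of the thick filament, gave 0.6592, 1.052, 0 and 50.75 CPM in Control 1 to 4. It gave 0, 103.8, 9.54 and 0.3149 CPM in MCT-vehicle 1 to 4, and 0, 0.2763, 0.6426 and 0.02795 CPM in MCT-Fer-1 1 to 4. Control 4 and the MCT-vehicle libraries 2 and 3 were thus high, 3 libraries had a count of 0, and the ranges of all 3 groups overlapped. Myl7 (ENSRNOG00000014409), the regulatory light chain of atrial myosin, followed the same order, at 76.06 CPM in Control 4, 89.1 CPM in MCT-vehicle 2 and 11.48 CPM in MCT-vehicle 3. The other 9 libraries lay between 0 and 1.218 CPM for Myl7, and 6 of them had a count of 0. Myl4 (ENSRNOG00000050675), the essential light chain of atrial myosin, gave 0.8241, 0.4981, 0.903 and 26.73 CPM in Control, 0.7259, 27.33, 6.559 and 0.9973 CPM in MCT-vehicle, and 0.1723, 0.7829, 1.172 and 0.573 CPM in MCT-Fer-1. It was detected in every library, at low level in 9. Myh6 and Myh7 are near-identical in long stretches, and the counting could have split reads between them, so the level of either is uncertain to that extent.

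The thin filament genes had a measurable level in all 12 libraries. Actc1 (ENSRNOG00000008536), the actin of heart muscle, gave 30.05, 13.78, 13 and 55.48 CPM in Control, 16.01, 114.1, 38.83 and 37.95 CPM in MCT-vehicle, and 14.56, 35.83, 8.467 and 13.3 CPM in MCT-Fer-1. The step from the high libraries to the rest was less clear here than for the myosins: Control 1, MCT-vehicle 4 and MCT-Fer-1 2 came within 10 CPM of MCT-vehicle 3. Actc1 shares most of its coding sequence with Acta1 and Acta2, the actins of skeletal and smooth muscle, and its value is uncertain for that reason; Acta2 lay between 128.7 and 326.4 CPM, with its highest level in MCT-vehicle 2 and its next highest, 312 CPM, in MCT-vehicle 4. Tnni3 (ENSRNOG00000018250), the cardiac inhibitory troponin subunit, was at 28.39 CPM in Control 4, 35.12 CPM in MCT-vehicle 2, 6.26 CPM in MCT-vehicle 3 and between 0.5418 and 1.758 CPM in the other 9 libraries. The gap left no library between 6.26 and 28.39 CPM.

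Tnnt2 (ENSRNOG00000033734), which anchors troponin to tropomyosin, had a second pattern beneath the first. Control 1 to 4 gave 1.154, 0.7195, 1.445 and 21.29 CPM, MCT-vehicle 1 to 4 gave 2.647, 35.8, 5.59 and 3.989 CPM, and MCT-Fer-1 1 to 4 gave 2.929, 4.744, 5.33 and 2.725 CPM. All 8 libraries from monocrotaline-treated rats were above Control 1, 2 and 3, while Control 4 was above 7 of those 8. Among the other members this split of the low libraries was not seen: for Ryr2, Casq2, Tnni3, Actc1, Myl4, Myh6, Myl7 and Sln the range of Control 1, 2 and 3 overlapped that of the 4 MCT-Fer-1 libraries.

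Among the calcium handling genes, Casq2 (ENSRNOG00000016243), which stores calcium in the sarcoplasmic reticulum, gave 0.7142, 0.8855, 0.903 and 4.436 CPM in Control, 2.178, 18.08, 0.8943 and 0.6299 CPM in MCT-vehicle, and 1.464, 0.83, 0.6048 and 1.048 CPM in MCT-Fer-1. MCT-vehicle 3, intermediate for most members, was among the low libraries for Casq2, with the 7th highest level of the 12. Ryr2 (ENSRNOG00000017060), the channel that releases this calcium, was at 8.293 CPM in MCT-vehicle 2, 3.549 CPM in Control 4 and 2.161 CPM in MCT-vehicle 3, against 0.3402 to 1.837 CPM in the other 9. Its step from MCT-vehicle 3 to the low libraries was small. Sln (ENSRNOG00000009047), a small inhibitor of the calcium pump in atrial muscle, was at 11 CPM in Control 4, 9.064 CPM in MCT-vehicle 2 and 1.118 CPM in MCT-vehicle 3, and between 0 and 0.2303 CPM elsewhere, with a count of 0 in 3 libraries.

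Nppa (ENSRNOG00000008176), the precursor of atrial natriuretic peptide, did not follow the other members. It had 4 counts in all, 1 in Control 1 and 3 in MCT-vehicle 3, which is 0.05494 and 0.2236 CPM, and 0 counts in the other 10 libraries. Control 4 and MCT-vehicle 2, with 1286 and 1966 counts of Myl7, had none. Relative to the Myl7 count, 0 counts of Nppa allow, by the 1-sided limit of 3 counts, a ratio of up to 0.233% in Control 4. In MCT-vehicle 2 this limit is 0.153%. MCT-vehicle 3 had 3 counts of Nppa to 154 of Myl7, or 1.95%. These are ratios of counts, not corrected for transcript length, and how the deposited table was counted for Nppa is not given in the sources used here.

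The members did not differ by 1 common factor between the pair of high libraries. The ratio of MCT-vehicle 2 to Control 4 was 4.08 for Casq2 (exact 95% counting interval 3.18 to 5.29) and 2.34 for Ryr2 (1.74 to 3.18). It was 2.06 for Actc1, 2.05 for Myh6 (1.89 to 2.21) and 1.68 for Tnnt2. The atrial light chains were close to equal, with 1.17 for Myl7 (1.09 to 1.26) and 1.02 for Myl4 (0.903 to 1.16), and Sln was at 0.824 (0.671 to 1.01). The ratio for Tnni3 was 1.24 (1.1 to 1.39). The interval lay above 1 for 7 genes and below 1 for 0, and the intervals of Casq2, Ryr2, Actc1 and Myh6 did not meet those of Myl7, Tnni3, Myl4 and Sln. The intervals cover counting error in these 2 libraries, not variation between rats.

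**Figure D2:**
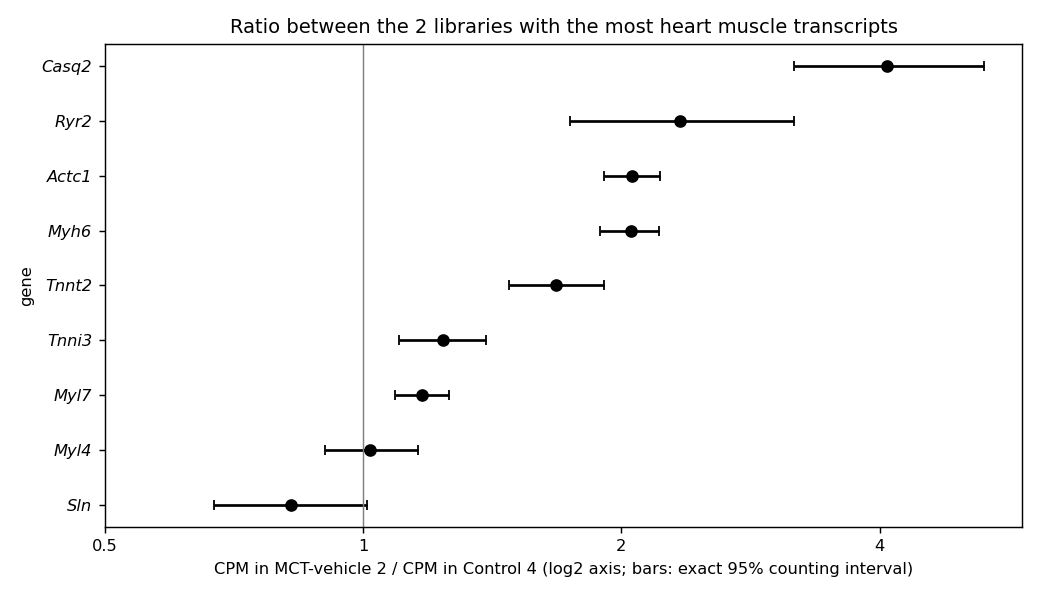
Ratio of the level in MCT-vehicle 2 to that in Control 4 (horizontal axis, log2 scale) for the 9 heart muscle transcripts with counts in both; points are ratios of CPM and bars are exact 95% counting intervals. Casq2 is farthest to the right at 4.08, and Sln at 0.824 is the only point left of 1.

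The same unevenness appears in each gene's share of the member counts within a library. Myl7 made up 27.4% (exact binomial interval 26.1 to 28.7) of the 4695 member counts in Control 4, 20.2% (19.4 to 21) of the 9724 in MCT-vehicle 2 and 13.9% (11.9 to 16.1) of the 1109 in MCT-vehicle 3. For Myh6 the shares were 18.3%, 23.5% and 11.5% in the same order of libraries. Actc1, which had the highest baseline in the other libraries, made up 20% in Control 4, 25.9% in MCT-vehicle 2 and 47% (44 to 50) in MCT-vehicle 3. Casq2 was 1.6%, 4.1% and 1.1% in the same order. In MCT-vehicle 3 the level was 4.95% of that in MCT-vehicle 2 for Casq2, 9.19% for Myh6, 12.3% for Sln, 12.9% for Myl7, 17.8% for Tnni3, 24% for Myl4 and 34% for Actc1.

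The myosin genes Myh7, Myl2 and Myl3, typical of ventricle, were low beside their atrial or common counterparts in these libraries. Myh7, the slow myosin heavy chain, had 78 counts to 2290 of Myh6 in MCT-vehicle 2 (3.41%), 41 to 858 in Control 4 (4.78%) and 14 to 128 in MCT-vehicle 3 (10.9%). Myl2, the ventricular regulatory light chain, had 1 count to 1966 of Myl7 in MCT-vehicle 2 (0.0509%) and 4 to 1286 in Control 4 (0.311%). Myl3, the ventricular essential light chain, had 6 counts to 603 of Myl4 in MCT-vehicle 2 (0.995%) and 7 to 452 in Control 4 (1.55%). Myh7 itself was at 3.535 CPM in MCT-vehicle 2, 2.425 CPM in Control 4 and 1.043 CPM in MCT-vehicle 3, and at most 0.05249 CPM in the other 9, while Myl2 and Myl3 stayed at or below 0.414 CPM in all 12. Nppb, the precursor of brain natriuretic peptide, had 9 counts in all 12 libraries together. Hey2, the ventricular list's gene with the highest mean level, was not low. It was at 9.759 CPM in Control 4 and 6.934 CPM in MCT-vehicle 2, within the 4.455 to 9.944 CPM found elsewhere.

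By group, the mean level was highest in MCT-vehicle, then Control, then MCT-Fer-1 for 9 of the 10 members, with Sln highest in Control. The 9 members with this order include Nppa, with 4 counts in all, and the others share their high libraries, so they are not separate observations. Neighbours in this order did not differ beyond the spread between libraries: in Control and MCT-vehicle the SD was larger than the mean in 16 of 20 cases. Myh6 was at 13.1 ± 25.1 CPM in Control, 28.4 ± 50.4 CPM in MCT-vehicle and 0.237 ± 0.298 CPM in MCT-Fer-1 (SD, n = 4 each). Tnni3 was at 7.95 ± 13.6, 10.8 ± 16.4 and 1.03 ± 0.379 CPM, Actc1 at 28.1 ± 19.9, 51.7 ± 42.9 and 18 ± 12.2 CPM, and Ryr2 at 1.87 ± 1.16, 3.35 ± 3.32 and 1.02 ± 0.544 CPM, in the same order. The spread in MCT-Fer-1 was narrow in CPM only, and went with low means and the absence of a high library from that group. Relative to the mean it was not narrow for every member. The SD there exceeded the mean for Myh6, for Myl7 (0.142 ± 0.284 CPM) and for Sln (0.108 ± 0.118 CPM).

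Of the 10 members, 8 passed the filter on low counts; Sln and Nppa did not. Since the members were chosen from these values, and high libraries could help a member pass, the counts that follow describe the 8 and support nothing. In the fit over all 15257 tested genes, edgeR's quasi-likelihood test called 0 of the 8 in MCT-vehicle against Control, where 18.6% of all tested genes were called (10.3% higher and 8.28% lower). It called 0 of the 8 in MCT-Fer-1 against MCT-vehicle, where it called 0% of genes (1835 genes, 12%, had an unadjusted p below 0.05, and DESeq2 called 237), and 0 of the 8 in MCT-Fer-1 against Control, where 10.8% were called (6.67% higher and 4.12% lower). The groups overlapped for all 8 in each comparison; of all tested genes, 21.5%, 6.1% and 19.1% did not overlap in these comparisons. The fitted log2 fold changes were wide nevertheless. Their median was 0.87 in MCT-vehicle against Control (0.31 for Myl4 to 1.67 for Casq2), -2.97 in MCT-Fer-1 against MCT-vehicle (-7.61 for Myl7 to -1.53 for Actc1) and -1.91 in MCT-Fer-1 against Control, beside medians of 0.0158, -0.00928 and -0.00357 over all tested genes. The comparisons share their groups, so these values are not independent of each other.

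Without MCT-vehicle 2 and Control 4, 8 of the 24 fold changes, beside that of Tnnt2 given next, moved by more than the SD between libraries, and 2 changed sign, Casq2 and Tnnt2 in MCT-Fer-1 against Control. The values that follow are examples and not a ranking by size of move. They leave out Myh6 and Myl7, which had the widest fold changes with all libraries in MCT-Fer-1 against Control, at -5.90 and -7.22. In MCT-Fer-1 against MCT-vehicle, Tnni3 went from -3.43 ± 1.51 (log2, SE) to -1.38 ± 0.67, Casq2 from -2.51 ± 1.02 to -0.37 ± 0.45 and Tnnt2 from -1.62 ± 1.12 to -0.03 ± 0.34. In MCT-Fer-1 against Control, Myl4 went from -3.34 ± 1.56 to -0.07 ± 0.80, Tnni3 from -2.98 ± 1.5 to -0.17 ± 0.70 and Actc1 from -0.64 ± 0.69 to -0.08 ± 0.53. In MCT-vehicle against Control, Casq2 went from 1.67 ± 0.98 to 0.58 ± 0.49 and Myl4 from 0.31 ± 1.34 to 1.85 ± 0.83. In MCT-vehicle, Myl4 then still held the 6.559 CPM of MCT-vehicle 3. Myh6 and Myl7 likewise kept 9.54 and 11.48 CPM in that library, against at most 0.6426 and 0.567 CPM in MCT-Fer-1. The median over the members became 1.53, -1.08 and -0.12 in the 3 comparisons.

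Tnnt2 turned direction. Its log2 fold change in MCT-Fer-1 against Control was -0.64 ± 1.12 with all libraries and 1.83 ± 0.38 without these 2, and in MCT-vehicle against Control it went from 0.98 ± 1.10 to 1.87 ± 0.40. The libraries left out were those with the highest Tnnt2, 1 of them a Control, so the Control level falls by construction and these values are a description, with no test. With MCT-vehicle 3 also left out, the values of Tnnt2 were 1.58 ± 0.40 in MCT-vehicle against Control and 1.83 ± 0.36 in MCT-Fer-1 against Control. Across all tested members, that wider omission changed the sign of 9 of 24 fold changes. In MCT-vehicle against Control, Tnni3 was then at -0.23 ± 0.54 and Myh6 at -1.94 ± 1.71, and in MCT-Fer-1 against MCT-vehicle Tnni3 was at 0.07 ± 0.51.

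**Figure D3:**
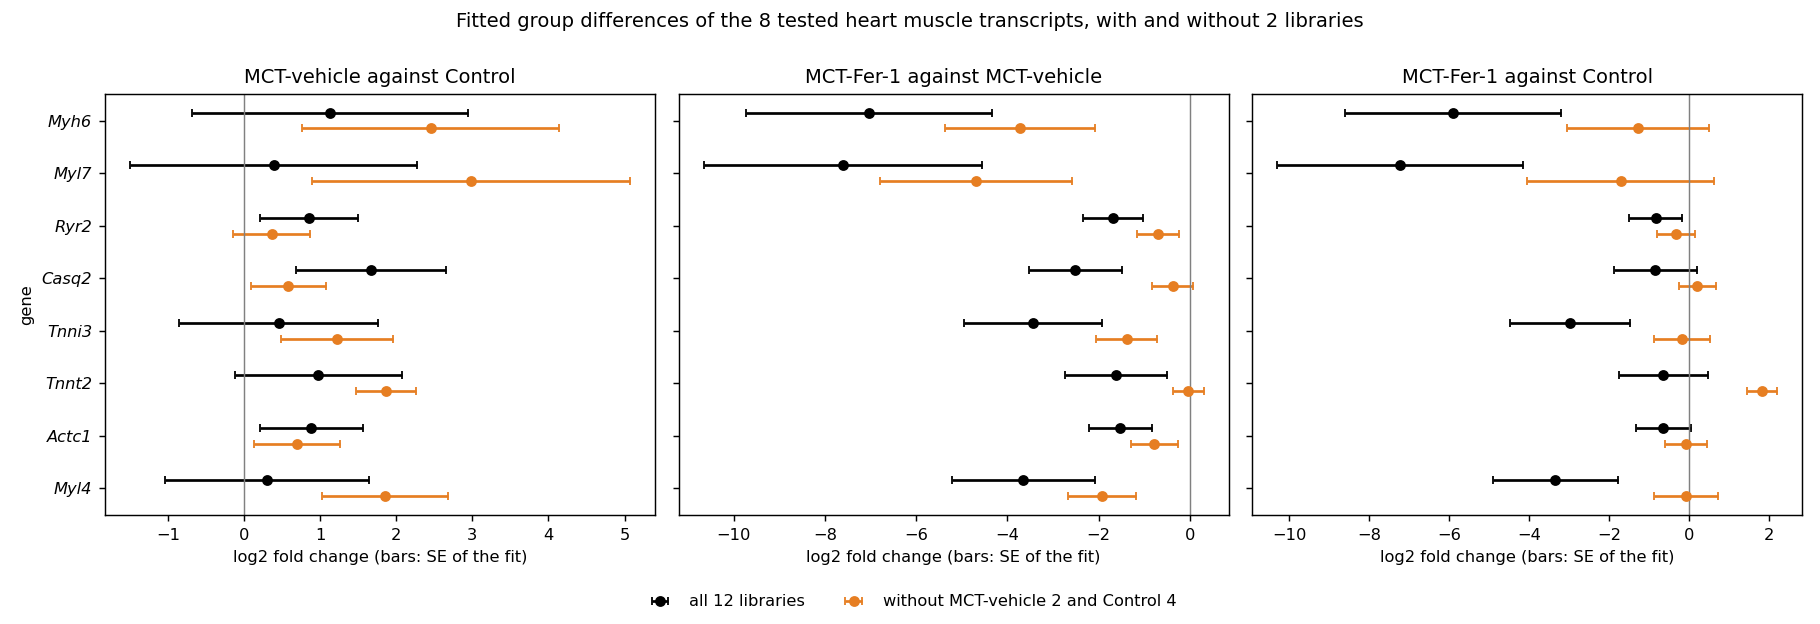
Log2 fold change (horizontal axis) of the 8 tested heart muscle transcripts (vertical axis) in the 3 comparisons, with all 12 libraries (black) and without MCT-vehicle 2 and Control 4 (orange); bars are the SE of the fit. Without those libraries the points of MCT-Fer-1 against Control move toward 0, except that of Tnnt2, which moves from -0.64 to 1.83.

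The transcripts of other heart muscle proteins, taken from lists outside the members, were high in the same libraries to an uneven extent. Among other sarcomere genes, 10 of 18 measured were higher in both MCT-vehicle 2 and Control 4 than in all 10 other libraries: Tnnc1, Mybpc3, Myom1, Myom2, Myoz2, Actn2, Ldb3, Csrp3, Xirp2 and Smpx. The share of all measured genes with this property was not computed. The counts of this kind, here and in the paragraphs that follow, are therefore a description without a yardstick. Tnnc1, the calcium-binding troponin subunit, was at 17.04 CPM in MCT-vehicle 2, 15.97 CPM in Control 4 and at most 1.612 CPM in the other 10. Mybpc3, myosin-binding protein C, was at 15.32, 8.399 and at most 1.714 CPM in the same order. The remaining 8 included Des (desmin), Cryab and Tpm1, which smooth muscle and other lung cells also express. Myoz2, Actn2, Csrp3, Xirp2 and Smpx did not pass the filter on low counts and were not tested. None of the 13 tested sarcomere genes was called by edgeR in any of the 3 comparisons. Of all tested genes, 18.6% were called in MCT-vehicle against Control, 0% in MCT-Fer-1 against MCT-vehicle and 10.8% in MCT-Fer-1 against Control.

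Muscle energy genes gave 9 of 18 measured above all 10 other libraries in both: Ckm, Ckmt2, Fabp3, Mb, Cox6a2, Eno3, Pgam2, Perm1 and Art3. Mb, the oxygen store myoglobin, was at 26.92 CPM in MCT-vehicle 2, 21.77 CPM in Control 4, 1.043 CPM in MCT-vehicle 3 and at most 1.059 CPM elsewhere. Unlike Myl7 or Myh6, Mb was thus no higher in MCT-vehicle 3 than in MCT-Fer-1 2. Calcium handling and excitation gave 4 of 20, among them Hrc, Trdn and Srl, of which Srl (sarcalumenin, a calcium-binding protein of the sarcoplasmic reticulum) was at 7.704 CPM in MCT-vehicle 2, 2.662 CPM in Control 4 and at most 0.7752 CPM elsewhere. Atrial, pacemaker and venous myocardium genes gave 4 of 17. Among these were Mybphl, the pacemaker channel Hcn4 and the transcription factor Shox2. Hcn4 was at 4.791 CPM in Control 4, 2.629 CPM in MCT-vehicle 2 and up to 2.38 CPM elsewhere, and Bmp10, an atrial signalling factor, had a count of 0 in all 12.

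Heart transcription factors gave 1 of 10, Tbx20, at 1.314 CPM in MCT-vehicle 2, 0.5323 CPM in Control 4 and 0.2236 CPM in MCT-vehicle 3, with 0 counts in the other 9. Nkx2-5, which marks the heart muscle lineage, had 1 count in all, in MCT-vehicle 2. Ventricular genes gave 1 of 7, Myh7. The lists of other tissues gave 0 of 19 for skeletal muscle, 0 of 10 for smooth muscle, 0 of 10 for adipocytes, 0 of 7 for mesothelium, 0 of 7 for cartilage and large airway, 0 of 5 for red cells and 0 of 9 for lung identity, and 1 of 10 for nerve, S100b. Summed skeletal muscle markers were at 21.23 CPM in Control 4 and 29.05 CPM in MCT-vehicle 2, the lowest of the Control and of the MCT-vehicle group.

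**Figure D4:**
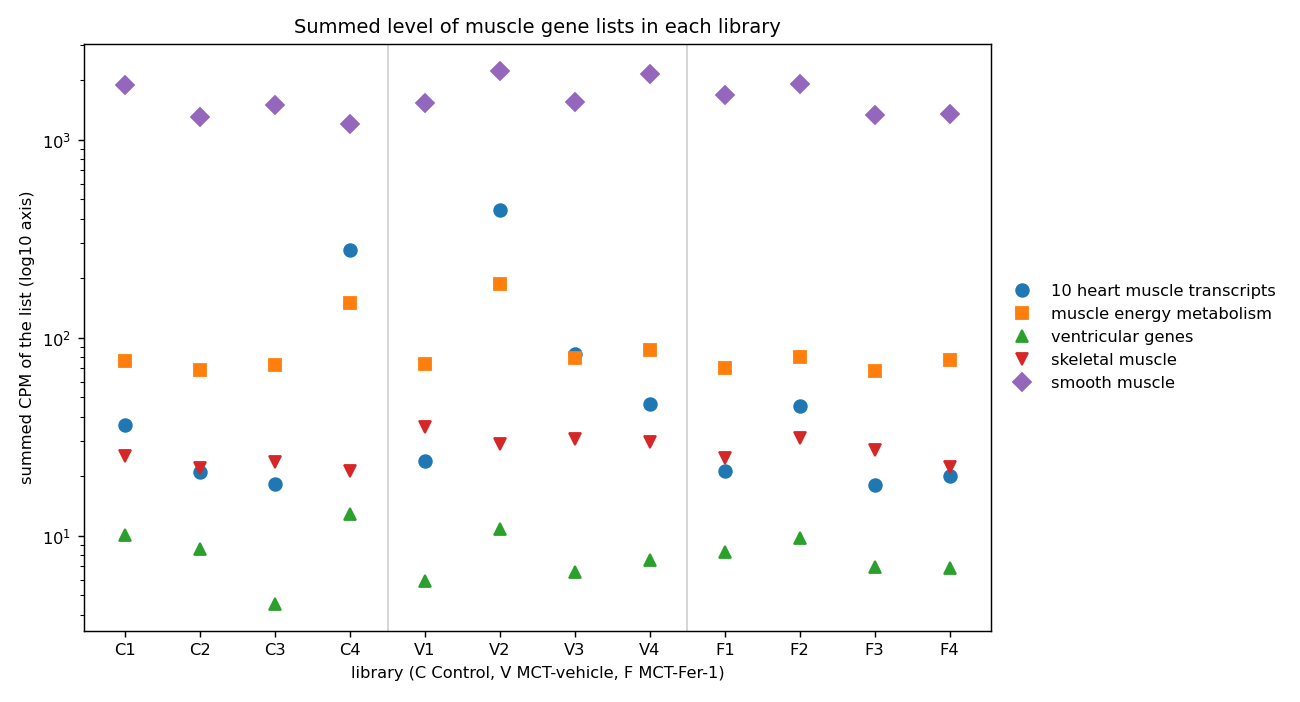
Summed level (vertical axis, CPM, log10 scale) of the 10 heart muscle transcripts and of 4 other muscle lists in each library (horizontal axis, C Control, V MCT-vehicle, F MCT-Fer-1); each point is 1 list in 1 library. The heart muscle transcripts reach 277.7 CPM in C4 and 440.7 CPM in V2, and muscle energy genes are highest in the same libraries, whereas the skeletal muscle sum stays between 21.23 and 35.27 CPM.

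Some adipocyte transcripts were also higher in MCT-vehicle 2 than in Control 4. Adipoq, an adipocyte hormone, was at 4.623 CPM there and at 0.7098 CPM in Control 4, within the 0.1723 to 0.7195 CPM of the others, and Plin1, the coat protein of fat droplets, was at 2.402 CPM against 0.05915 CPM. Others were not: Lipe, a lipase, was at 70.88 CPM in MCT-vehicle 2 and 96.94 CPM in Control 4, and Cidec, a lipid droplet protein, at 3.49 and 6.388 CPM. The sum of the adipocyte list was 188.7 CPM in MCT-vehicle 2, the same as in MCT-vehicle 1 and below the 242.4 CPM of MCT-vehicle 3. The smooth muscle sum was 2235 CPM in MCT-vehicle 2, the highest of the 12, and 1198 CPM in Control 4, the lowest. The part of other tissue in the member levels was not tested.

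The genes outside the members whose pattern was most like theirs were ranked by Pearson's r of log2 CPM with the mean of the 8 tested members over the 12 libraries. The points share their libraries, and the 2 high libraries carry much of r, so it is given with no p. The 12 closest of 15249 genes had r from 0.891 to 0.96, and over the 10 libraries without MCT-vehicle 2 and Control 4 from 0.197 to 0.893. Fabp3, a fatty acid carrier of heart muscle, was first (r = 0.96, or 0.745 over the 10 libraries), followed by Mb, Mybpc3 and Klhl41. Mybphl, Tnnc1, Hrc, Sh3bgr and Smpd3 were also among them. The secretory granule protein gene Scg2, at 5.212 CPM in MCT-vehicle 2, 1.656 CPM in Control 4 and 1.938 CPM in MCT-vehicle 3, kept the highest r over the 10 libraries, at 0.893.

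Among the 12 were a pair of airway secretory genes. Scgb3a1, a secretoglobin of larger airways, was at 317.5 CPM in MCT-vehicle 2 and 114.1 CPM in Control 4, and at most 6.633 CPM in the other 10. Bpifa1, a secreted protein of the upper airway, was at 144.3 CPM in MCT-vehicle 2, 10.29 CPM in Control 4 and 2.832 CPM in MCT-vehicle 3. The same libraries were thus high for heart muscle and for these airway transcripts, although the ratio of MCT-vehicle 2 to Control 4 was larger for Bpifa1 than for any member. How these transcripts relate to the member levels was not tested.

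**Figure D5:**
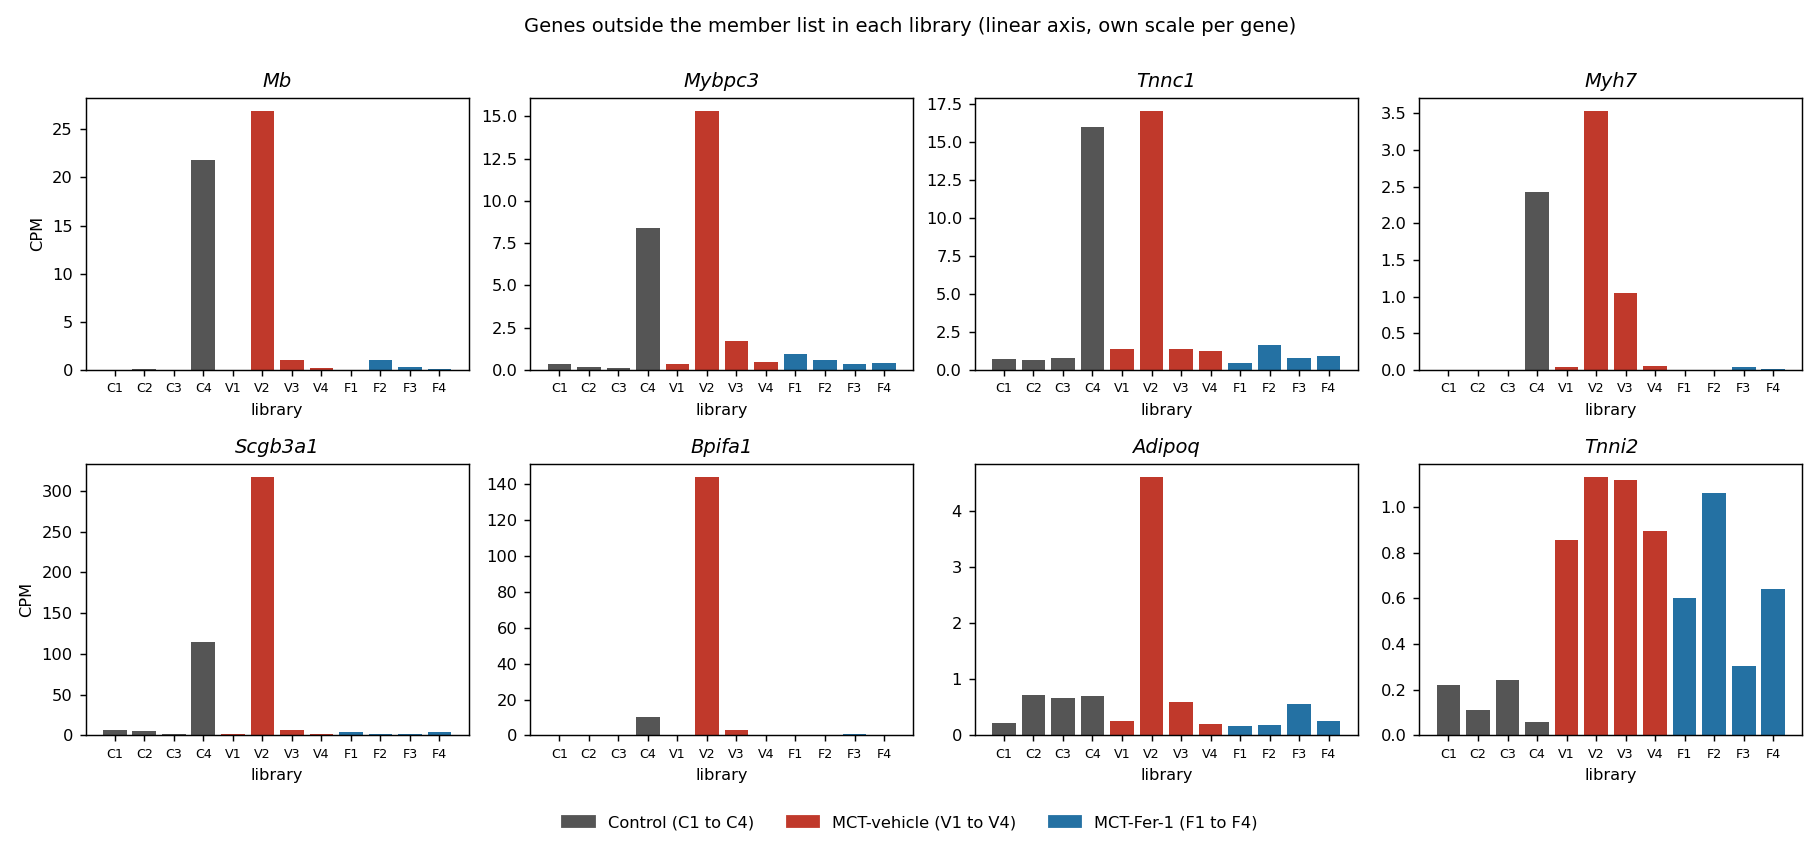
Level (vertical axis, CPM from 0, own scale per gene) of 8 genes outside the member list in each library (horizontal axis, C Control, V MCT-vehicle, F MCT-Fer-1; each bar is 1 library). Mb, Mybpc3, Tnnc1 and Myh7 share the high libraries of the members, Scgb3a1 and Bpifa1 do so with a larger excess in V2, Adipoq is high in V2 with 4.623 CPM, and Tnni2 is lower in the 4 Control libraries than in the other 8.

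With all 12 libraries, a few muscle-related genes outside the members passed the test between groups. None of them was above all other libraries in both Control 4 and MCT-vehicle 2. A gene that is high in this way has a wide spread within both groups and could hardly pass, so this says little about such genes. The calls of each list stand beside the 18.6% of all tested genes called in MCT-vehicle against Control. Among the 14 lists, this share was exceeded by skeletal muscle (2 of 9), adipocyte (3 of 7) and red cell (5 of 5) genes. Slc8a1, the sodium-calcium exchanger, was at 15.6 ± 1.61 CPM in Control, 23.4 ± 3.32 CPM in MCT-vehicle and 22.5 ± 1.36 CPM in MCT-Fer-1 (SD, n = 4 each). It rose by 0.58 ± 0.11 log2 in MCT-vehicle against Control (edgeR adjusted p = 0.00399) and by 0.52 ± 0.11 in MCT-Fer-1 against Control (adjusted p = 0.0112), with no overlap between the groups, and both calls held without MCT-vehicle 2 and Control 4 (adjusted p = 0.0369 and 0.0381), where 10.9% and 6.39% of all genes tested were called. Control 4, with the second highest member sum, had the lowest Slc8a1 of all 12 at 13.54 CPM. Gja1, the gap junction protein connexin 43, rose by 0.47 ± 0.12 in MCT-vehicle against Control (adjusted p = 0.0159; 0.0959 without the 2 libraries), and Kcnj2, an inward rectifier potassium channel, fell by 0.59 ± 0.18 (adjusted p = 0.0418; 0.0202 without them). These were the 3 calls among 19 tested calcium handling and excitation genes, 2 higher and 1 lower, a share below that of all genes.

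The skeletal muscle list gave 2 calls among 9 tested genes in MCT-vehicle against Control, both higher. Tnni2, the fast skeletal troponin I, was at 0.158 ± 0.0869 CPM in Control, 0.999 ± 0.147 CPM in MCT-vehicle and 0.652 ± 0.311 CPM in MCT-Fer-1, and rose by 2.62 ± 0.48 log2 in MCT-vehicle against Control (edgeR adjusted p = 0.00287) and by 2.01 ± 0.49 in MCT-Fer-1 against Control (adjusted p = 0.0206). Every library of both monocrotaline groups was above every Control library. The Control values lay near the counting limit, and Tnni2 had 172 counts over all 12 libraries. Control 2 and Control 4, at 0.1107 and 0.05915 CPM, were below the 0.166 and 0.177 CPM that 3 counts stand for there. Without the 2 libraries the first call remained (adjusted p = 0.0232) and the second did not (0.0747). Tnnt3, the fast skeletal troponin T, rose by 0.66 ± 0.21 (adjusted p = 0.0418; 0.157 without the 2 libraries). Fabp4, the fatty acid carrier of adipocytes and some endothelial cells, rose by 2.55 ± 0.33 in MCT-vehicle against Control (adjusted p = 0.000446). Of 7 tested adipocyte genes, 2 were higher in that comparison, Fabp4 and Cfd, and 1 was lower, Lipe, which fell by 0.55 ± 0.16 (adjusted p = 0.0299; 0.0854 without the 2 libraries). In MCT-Fer-1 against Control, Fabp4 was higher and Lipe fell by 0.78 ± 0.16 (adjusted p = 0.0084; 0.0289 without them).

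The other lists gave few calls. In MCT-vehicle against Control, Tbx3 and Isl1, transcription factors of pacemaker and venous pole development, fell by 0.49 ± 0.15 and 1.67 ± 0.53 log2 (edgeR adjusted p = 0.0377 and 0.0425) as 2 of 12 tested atrial, pacemaker and venous genes. Gata6 fell by 0.65 ± 0.19 (adjusted p = 0.0315) as 1 of 6 heart transcription factors, and Fhl2, a LIM domain protein, rose by 0.80 ± 0.25 (adjusted p = 0.0417) as 1 of 14 energy and stress genes. None of these 4 passed without MCT-vehicle 2 and Control 4 (adjusted p = 0.107, 0.173, 0.176 and 0.209). In MCT-Fer-1 against Control, Cox8b, a muscle subunit of cytochrome c oxidase, fell by 0.84 ± 0.22 (adjusted p = 0.0314), and without the 2 libraries at 0.0325. Only without the 2 libraries, edgeR called 1 of 13 energy genes higher, Cox6a2, and 1 lower, Cox8b, in MCT-vehicle against Control. There, 10.9% of all genes tested were called. Cox6a2 was among the genes high in both libraries left out, at 15.86 CPM in MCT-vehicle 2 and 10.76 CPM in Control 4. Red cell genes, among them the globin Hbb, were lower in MCT-vehicle against Control in 5 of 5 tested, and in 3 of 5 in MCT-Fer-1 against Control. Of all tested genes, 18.6% and 10.8% were called in these comparisons, 8.28% and 4.12% as lower. Without MCT-vehicle 2 and Control 4 the red cell counts were 3 of 5 and 0 of 5, beside 10.9% and 6.39% of all genes tested. The median log2 fold change of the red cell list in MCT-Fer-1 against Control was -0.82 with all libraries and -0.86 without them. Smtn (smoothelin) was the 1 call among 10 smooth muscle genes, higher by 0.44 ± 0.14 in MCT-vehicle against Control (adjusted p = 0.0499; 0.125 without the 2 libraries). In the same comparison edgeR called 0 of 1 ventricular, 0 of 7 mesothelium, 0 of 5 nerve, 0 of 2 cartilage and airway and 0 of 9 lung identity genes tested. In MCT-Fer-1 against Control it called 1 of 7 mesothelium genes, beside 10.8% of all tested genes. This was Krt19, which fell by 0.50 ± 0.11 (edgeR adjusted p = 0.014). That call held without the 2 libraries. In MCT-Fer-1 against MCT-vehicle, edgeR called 0 genes of any list.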

How the data were processed

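Whole-lung RNA was measured in 12 libraries, 4 per group, grouped and numbered by the sample titles. Per the file headers, the authors deposited raw counts for each gene. Its columns of group means hold the authors' mean counts, a signal that was not used. Which aligner, counter, strand setting or build was used is not given in the sources used here.

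The filterByExpr function of edgeR left 15257 of 32883 genes. Counts were scaled by TMM and fitted with the robust quasi-likelihood test of edgeR on all 12 libraries (1 coefficient per group, 9 residual degrees of freedom). A gene counted as called where its p, adjusted by Benjamini-Hochberg over all genes tested, was below 0.05. The SE is that of the fit. Levels are CPM on TMM-scaled totals, correlations use log2 CPM with a prior count of 2, and intervals are exact (Poisson or binomial, 95%). The software was edgeR 4.0.16 with limma 3.58.1, and DESeq2 1.42.0, in R 4.3.3; the fit was tested on simulated data.

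The 10 members and 14 other lists (178 symbols, of which 167 matched; the other 11 were not analysed here) were chosen with earlier results of these data known. Named were all members, the 4 genes with the highest mean level and up to 3 called genes of each list, and the 12 genes most like the members; not every gene so chosen is given. Myh7, Myl2, Mb, Tnnc1, Mybpc3, Shox2, Hcn4, Bmp10, Tbx20, Nkx2-5, Srl, S100b, Adipoq, Plin1, Cidec, and the lists of genes above all other libraries, were named after their values were seen. Promoter windows came from RefSeq (GRCr8). Alternatives were other size factors, no filter, a fit of 2 groups alone, a replicate block, DESeq2, and libraries left out.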

Additional observations from a re-analysis of the deposited data

Results flagged for a closer look

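In 33 groups of 4 libraries (the 10 members and their sum in each group), 20 values stood apart from the other 3 by Dixon's criterion. The members were chosen from these values and are high in the same libraries, so the rate that chance gives, about 1 in 20 groups, is no yardstick for this number, and the values are a description.

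In the Control group, Control 4 stood apart in 8: the member sum (277.7 CPM), Myh6 (50.75), Myl7 (76.06), Casq2 (4.436), Tnni3 (28.39), Tnnt2 (21.29), Myl4 (26.73) and Sln (11 CPM). In the MCT-vehicle group, MCT-vehicle 2 stood apart in 8: the sum (440.7 CPM), Myh6 (103.8), Myl7 (89.1), Ryr2 (8.293), Casq2 (18.08), Tnni3 (35.12), Tnnt2 (35.8) and Sln (9.064 CPM). The values of Actc1 in these 2 libraries, 55.48 and 114.1 CPM, did not reach the criterion, since Actc1 also varied among the other libraries.

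The remaining values that stood apart were small. Nppa was at 0.05494 CPM in Control 1, which is 1 count, and at 0.2236 CPM in MCT-vehicle 3, which is 3 counts. In the MCT-Fer-1 group, the member sum of MCT-Fer-1 2 was 45.23 CPM, of which Actc1 made up 35.83 CPM, and Myl7 in MCT-Fer-1 3 was 0.567 CPM.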

How the results depend on the processing

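Counts of called genes depended on the libraries more than on the scaling. Without MCT-vehicle 2 and Control 4, 1675 genes were called in MCT-vehicle against Control (2843 with all libraries, 1567 shared) and 978 in MCT-Fer-1 against Control (1646; 942 shared). With MCT-vehicle 3 also left out, the counts were 1715 and 1200, and 6 in MCT-Fer-1 against MCT-vehicle, where edgeR called 0 with all libraries. In that comparison the fit of only its groups called 1 gene and DESeq2 called 237. Leaving out 1 library at a time gave 2021 to 2702, 0 to 41 and 977 to 1616 calls in MCT-vehicle against Control, MCT-Fer-1 against MCT-vehicle and MCT-Fer-1 against Control. Of these, 41 came without MCT-vehicle 3 and 2 without MCT-Fer-1 4, and in MCT-Fer-1 against Control 977 came without MCT-Fer-1 2, 978 without Control 4 and 995 without MCT-Fer-1 3. The cause was not tested, beyond fewer libraries entering each fit. Using total counts or DESeq2 size factors moved the member sums by less than the spread between libraries.

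The replicate numbers showed no sign of pairing: deviations of same-numbered libraries correlated at -0.0664 to 0.0839 over 12 pairs, others at -0.17 to 0.152 over 36. Such correlations cannot exclude a pairing. With the replicate block, 2812, 0 and 1676 genes were called.

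Tnnt2 in MCT-Fer-1 against Control turned from -0.64 to 1.83 without MCT-vehicle 2 and Control 4, and was 1.83 with MCT-vehicle 3 also left out. Of 24 member fold changes, 8 beside this one moved by more than the SD between libraries and 2 changed sign without those 2 libraries, and 12 beside it moved and 9 changed sign without the 3. Of 192 member fold changes with 1 library left out, 15 changed sign, 9 of them when the library left out was MCT-vehicle 2 or Control 4. Among the genes most like the members, r over the 10 libraries was 0.745 for Fabp3, 0.722 for Mb, 0.676 for Mybpc3, 0.747 for Klhl41, 0.893 for Scg2, 0.701 for Bpifa1, 0.44 for Scgb3a1 and for Mybphl, 0.38 for Tnnc1, 0.585 for Hrc, 0.616 for Smpd3 and 0.197 for Sh3bgr. The counts of Nppa, Sln and Nkx2-5 were at or near 0 in most libraries, so their levels there carry a wide counting error. The part of depth in this was not tested.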
